A study of Rattus norvegicus with 10 samples.

Results

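The subunits of the oxidative phosphorylation complexes were followed in the left ventricle of Sabra rats through heat acclimation, its loss and its renewal. Members were taken by gene symbol from the genes of an expression array: symbols beginning with Ndufa, Ndufb, Ndufc, Ndufs, Ndufv, Uqcr, Cox4, Cox5, Cox6, Cox7, Cox8a, Cox8c or Atp5, together with Sdha, Sdhb, Sdhc, Sdhd and Cyc1. Each gene was represented by its brightest probe set among probe sets with a single gene symbol. This gave 79 members of 14324 genes. Of these, 74 belong by symbol to the 5 complexes, with 33 in complex I, 4 in complex II, 7 in complex III, 14 in complex IV and 16 in complex V. The symbol rule also caught 3 assembly factors of complex I (Ndufaf1, Ndufaf3 and Ndufaf4) and 2 pseudogene symbols (Ndufs6-ps1 and Cox6c-ps1), which were kept apart. Cyc1 was not analysed here.

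The 10 arrays came from 5 groups of 2 biological pools, each pool made of 5 animals, and heating began when the rats were 3 weeks old. Control rats were untreated and 1 month old. AC2d rats, also 1 month old, spent 2 days at 34 °C, and AC30 rats spent 30 days at 34 °C and were 2 months old. DeAC rats had the 30 days at 34 °C followed by 30 days at 24 °C, and ReAC rats had in addition 2 further days at 34 °C. Both of these groups were 3 months old, so heat history and age cannot be told apart in any comparison of AC30, DeAC or ReAC with control, or of DeAC and ReAC with AC30. All values below are log2 array levels after quantile normalization, which can be compared between arrays for 1 gene but not between genes. In tissue RNA, fewer cells of a type and less RNA per cell cannot be told apart.

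Oxidative phosphorylation makes most of the ATP of the beating heart. Complex I (NADH dehydrogenase) and complex II (succinate dehydrogenase) pass electrons to ubiquinone, complex III (the cytochrome bc1 complex) passes them on to cytochrome c, and complex IV (cytochrome c oxidase) reduces oxygen. Complexes I, III and IV pump protons across the inner mitochondrial membrane, and complex V (ATP synthase) uses the return flow to make ATP. All members are encoded in the nucleus and imported, and several of their genes are known targets of the transcription factors NRF1, GABP and the estrogen-related receptors (ERR).

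The promoters of 5 members are shown as examples from those that passed the test between AC30 and DeAC. Sdha, Uqcrc1 and Uqcrc2 passed upwards and Cox8a and Atp5if1 downwards. They do not stand for all members that passed, whose motif counts are given further below. Each line gives the 250 bases before the first listed start of the gene, 5′ to 3′ on the coding strand, from RefSeq (GRCr8). Capitals mark matches on either strand to the NRF1 motif (GCGCA, any base, then GCGC) or to the GABP motif (CCGGAAG). The windows lie at chr1:30764303-30764552 (plus strand), chr8:118467973-118468222 (plus strand), chr1:184598990-184599239 (plus strand), chr1:213833624-213833873 (minus strand) and chr5:150026678-150026927 (minus strand).
Sdha: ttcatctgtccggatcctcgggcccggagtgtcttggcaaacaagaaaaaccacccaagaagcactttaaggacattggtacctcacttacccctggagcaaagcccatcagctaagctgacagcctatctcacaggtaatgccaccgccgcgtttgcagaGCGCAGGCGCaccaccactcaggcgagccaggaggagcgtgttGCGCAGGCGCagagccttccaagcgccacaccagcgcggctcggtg
Uqcrc1: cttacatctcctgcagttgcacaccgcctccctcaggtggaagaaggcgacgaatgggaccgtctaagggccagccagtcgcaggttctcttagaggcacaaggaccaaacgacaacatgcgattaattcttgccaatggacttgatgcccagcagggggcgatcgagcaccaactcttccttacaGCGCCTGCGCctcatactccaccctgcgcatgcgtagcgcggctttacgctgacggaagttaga
Uqcrc2: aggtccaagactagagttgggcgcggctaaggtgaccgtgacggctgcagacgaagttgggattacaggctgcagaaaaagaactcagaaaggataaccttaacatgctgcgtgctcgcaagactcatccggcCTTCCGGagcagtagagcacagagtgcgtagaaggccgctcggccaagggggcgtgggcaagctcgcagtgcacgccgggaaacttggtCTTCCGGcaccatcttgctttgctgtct
Cox8a: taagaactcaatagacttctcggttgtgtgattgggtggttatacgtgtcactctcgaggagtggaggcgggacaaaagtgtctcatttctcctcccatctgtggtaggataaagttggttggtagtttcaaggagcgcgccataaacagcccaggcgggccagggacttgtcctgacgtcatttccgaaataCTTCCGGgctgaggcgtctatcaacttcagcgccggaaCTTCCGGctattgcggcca
Atp5if1: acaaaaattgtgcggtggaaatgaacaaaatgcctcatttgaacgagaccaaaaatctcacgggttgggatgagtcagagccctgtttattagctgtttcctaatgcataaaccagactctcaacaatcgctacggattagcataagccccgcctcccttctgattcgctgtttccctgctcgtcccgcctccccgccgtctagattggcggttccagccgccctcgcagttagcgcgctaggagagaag
Sdha held 2 matches to NRF1, Uqcrc1 held 1, Uqcrc2 and Cox8a held 2 matches each to GABP, and the window of Atp5if1 held no capitals.

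Of the 79 members, 69 matched a RefSeq promoter. The NRF1 motif was found in 15.9% of these windows (11 of 69) against 4.17% of all 27457 rat promoters in the table, and the GABP motif in 29% (20 of 69) against 7.74%. The ERR motif (AAGGTCA) was found in 10.1% (7 of 69) against 3.77%. The motifs were searched apart on both strands and may overlap. A match to any of the 3 motifs was found in 14 of 31 promoters of members that were higher in DeAC than in AC30, in 2 of 6 of those that were lower, and in 17 of 32 of those that did not pass the test.

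Markers other than those of ventricular muscle also gave signal in these pools, and the cells it came from were not tested. The mean log2 level of 8 ventricular markers lay between 12.15 and 12.40, and among them Myl2 lay between 12.37 and 12.71 and Irx4 between 7.49 and 8.05. Of 8 atrial muscle markers 7 were measured, and their mean log2 level was 10.95 and 8.98 in the control pools, 11.23 and 11.30 in AC2d, 11.80 and 11.66 in AC30, 6.92 and 6.94 in DeAC, and 10.41 and 10.45 in ReAC. The first control pool also stood apart for the brown fat marker Ucp1, at 8.43 against a range of 4.49 to 4.67 in the second and in AC2d, DeAC and ReAC, and both AC30 pools lay between these values. Since the 2 control pools differ in this way, the counts of members against control are also given without each of them.

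The plot of complex medians by pool summarises all 5 complexes. For complex I, the median level of the 33 members relative to each gene's mean over the 10 arrays was 0.01 and 0.07 in the control pools, -0.05 and -0.05 in AC2d, -0.13 and -0.07 in AC30, 0.06 and 0.11 in DeAC, and 0.00 and 0.02 in ReAC. Both AC30 pools were thus below all others and the second DeAC pool above all others. Complex V followed the same order of AC30 lowest (-0.04 and -0.05) and DeAC highest in 1 pool (0.02 and 0.07), within a narrower range. Complex IV differed: its pools were at 0.04 and 0.07 in control, -0.01 and 0.05 in AC2d, 0.00 and -0.02 in AC30, 0.00 and -0.04 in DeAC, and -0.07 and -0.04 in ReAC. AC30 had the lowest of the 5 group means in 23 of 33 complex I members and in 8 of 16 complex V members, but in 4 of 14 complex IV members.

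**Figure D1:**
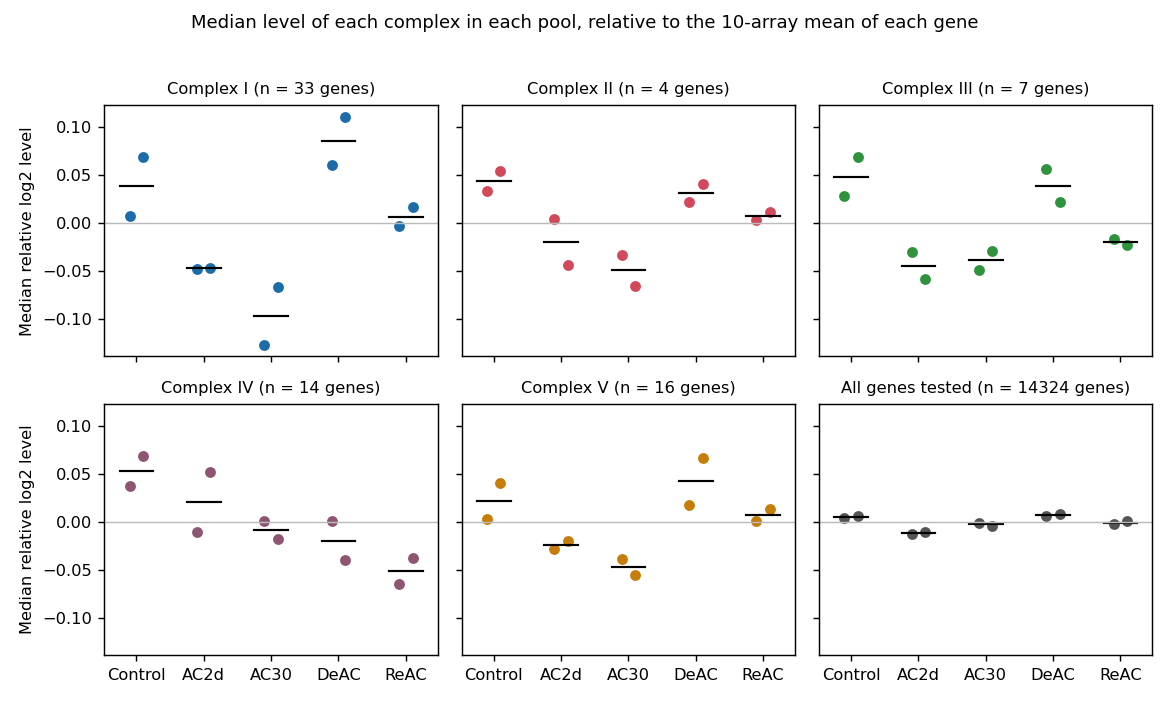
Median log2 level of each complex in the 2 pools of each group (points) with the mean of the pools (line), relative to the mean of each gene over the 10 arrays. Complex I pools run from -0.13 in AC30 to 0.11 in DeAC, complex IV is highest in control, and the median of all 14324 genes lies near 0 in every pool.

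An F test among the 5 groups in limma asked which members differed anywhere, with p-values adjusted over all genes and an adjusted p under 0.05 counted as passed. It was passed by 39 of 79 members (49.4%), against 22.2% of all genes. By complex, 18 of 33 members of complex I passed, 2 of 4 in complex II, 3 of 7 in complex III, 7 of 14 in complex IV and 7 of 16 in complex V. The smallest adjusted p-values from limma belonged to Atp5if1 (0.000167), Ndufb6 (0.000247), Ndufa10 (0.000259), Ndufaf1 (0.000287) and Uqcrc1 (0.000406).

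After 2 days of heat few members had moved. Against control, 1 of 79 members was higher in AC2d (0.663% of all genes were) and 4 were lower (1.86% of all genes). The higher member was Ndufa1, a small accessory subunit of the complex I membrane arm. The 4 lower ones were Ndufb6 of complex I, Cox6a1 of complex IV and Atp5f1d and Atp5mc3 of complex V. The median change was -0.07 over the 79 members and -0.02 over all genes. The total of 5 became 9 without the first control pool, 3 without the second, 0 and 1 without the first and second AC2d pools, and 1 with arrays scaled to equal medians. It was 8 without either AC30 pool and 3 without either ReAC pool, since all groups share one estimate of the spread.

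After 30 days of heat the members that passed were nearly all lower than in control. In AC30, 24 of 79 members were lower than in control (4.96% of all genes were lower) and 1 was higher (3.57% of all genes). Complex I held 13 of the lower members among its 33, complexes II, III and IV held 1 of 4, 3 of 7 and 1 of 14, complex V held 4 of 16, and the assembly factors Ndufaf1 and Ndufaf4 were the others. The 1 higher member was Atp5if1, the inhibitor protein of ATP synthase. Changes were small: those that passed ranged from 0.17 to 0.36 in size on the log2 scale, and the median was -0.11 over the members, -0.14 in complex I and -0.01 over all genes. The count of 24 fell to 21 without the first control pool, 11 without the second control pool and 4 without the first AC30 pool, and was 13 with the values as deposited and 4 with median scaling. It was 1 without the trend, 1 when only the groups compared were fitted, and 0 by limma with the atrial covariate described below, where 20 members had an unadjusted p under 0.05.

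Between AC30 and DeAC the direction was upward. In DeAC, 34 of 79 members were higher than in AC30 (9.85% of all genes were higher) and 7 were lower (7.45% of all genes). The higher ones were 20 of 33 in complex I, 2 of 4 in complex II, 3 of 7 in complex III, 6 of 16 in complex V and 2 of 14 in complex IV, with Ndufaf1 besides. The lower ones were Ndufa1 and Ndufc2 of complex I, Atp5if1 of complex V, and 4 members of complex IV (Cox7a2l, Cox7b, Cox6c and Cox8a). The median change was 0.13 over the members and 0.01 over all genes, with 0.20 in complex I, 0.09 in complex II, 0.06 in complex III, 0.00 in complex IV and 0.07 in complex V. Without the first AC30 pool 21 members were higher and 5 lower, and with median scaling the split was 40 higher and 2 lower. Median scaling also moved all genes upwards, and 1909 of the 2365 genes that passed were then higher. The median change was 0.24 over the members and 0.08 over all genes in that setting. The comparison shares the AC30 pools with the one against control, so the fall and the rise are not independent.

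**Figure D2:**
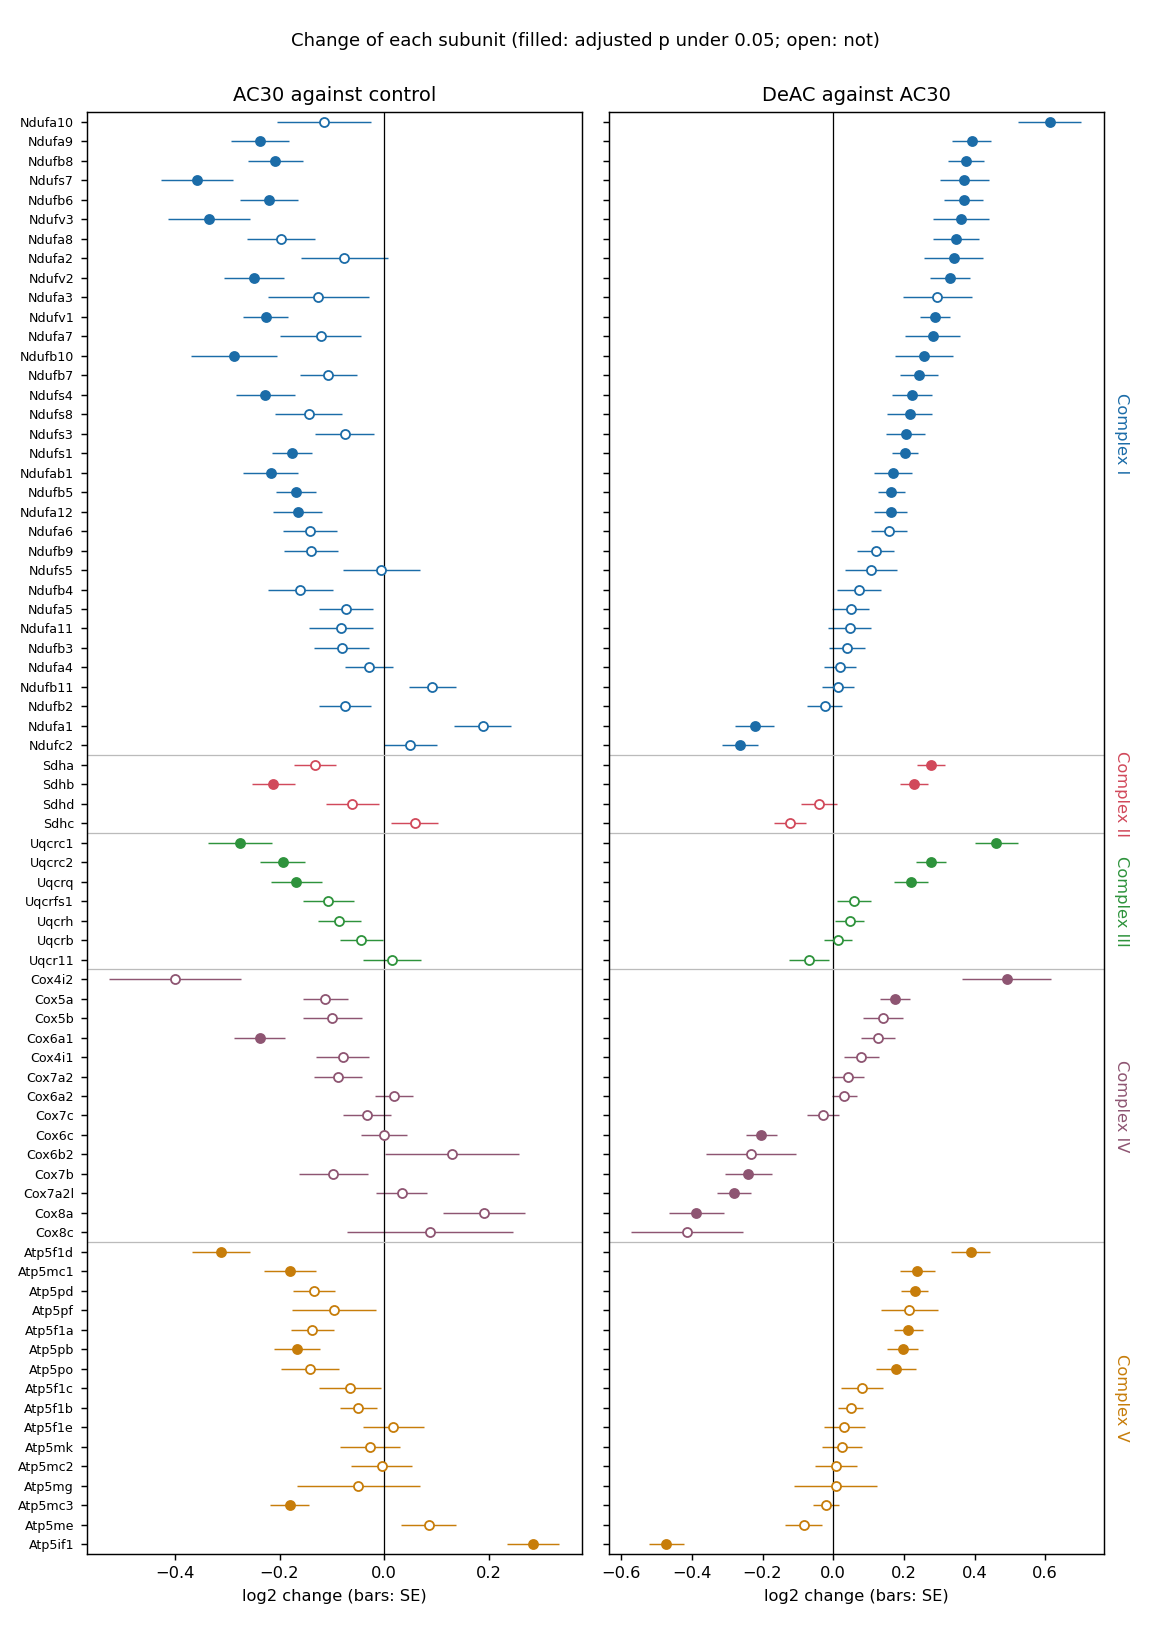
Log2 change of each subunit gene in AC30 against control (left) and in DeAC against AC30 (right), grouped by complex and ordered by the right panel, with SE bars and filled points where the adjusted p was under 0.05. Most complex I points lie left of 0 in the first panel and right of 0 in the second, while complex IV points lie on both sides. Both panels use the AC30 pools.

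Compared with control, the member median of the DeAC pools stood close to the starting level after quantile normalization. Of 79 members 3 were higher (4.45% of all genes were) and 6 were lower (3.77% of all genes), with a median change of 0.00 over the members and 0.00 over all genes. The higher ones were Ndufa10, Ndufaf1 and Sdha, and the lower ones Ndufc2, Cox7a2l, Cox7b, Cox6c, Atp5mc3 and Atp5if1. The split was 3 and 3 with the values as deposited, 6 and 0 with median scaling, 1 and 3 without the first control pool, 7 and 6 without the second, and 2 and 3 or 1 and 2 without the first or second DeAC pool. Without either AC2d pool it was 1 and 5. The median change of the members was 0.04 with the values as deposited (0.00 over all genes). With median scaling it was 0.11 (0.075 over all genes).

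Renewed heat for 2 days left most members between AC30 and DeAC. Against AC30, 16 members were higher in ReAC (6.77% of all genes were) and 5 were lower (4.85% of all genes), with a median change of 0.05 against 0.00 over all genes. Against the age-matched DeAC pools 1 member was higher, Atp5if1 (1.7% of all genes were higher), and 6 were lower (2.21% of all genes): Ndufb7, Ndufb8, Ndufaf1, Cox6a1, Atp5f1d and Atp5mc1. The median change there was -0.06 over the members, -0.11 in complex I and -0.01 over all genes. Against control 1 member was higher in ReAC (5.63% of all genes were) and 9 were lower (5.28% of all genes). Leaving out 1 ReAC pool reduced the higher members against AC30 to 7 or 9, and those lower against DeAC to 0 in either case. Without the first AC30 pool 10 were higher than in AC30, without either DeAC pool at most 2 were lower than in DeAC, and without either AC2d pool 3 were. Against control the total of 10 was 3 to 4 without 1 ReAC pool, 13 without the first control pool and 5 without the second. Median scaling gave 24 higher and 1 lower against AC30, 2 higher and 1 lower against control, and 0 of either against DeAC by limma. Against AC30 it also moved all genes upwards, with 1263 of the 1546 genes that passed higher. The median change there was 0.17 over the members and 0.07 over all genes.

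The study's design allows the second heat response (ReAC minus DeAC) to be set against the first (AC2d minus control). DeAC and ReAC rats were older than control and AC2d rats, so heat history and age cannot be told apart in this difference. In limma, 0 of 79 members passed this test of the difference (0.3% of all genes did in either direction), and 4 had an unadjusted p under 0.05. The median difference was 0.01 over the members and 0.01 over all genes, and the SE of a member's difference ran from 0.05 to 0.22. For Cox6a1 the difference was 0.13 ± 0.07 (SE, n = 2 pools per group; adjusted p 0.659). Without the second control pool 1 member passed.

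In complex I, the catalytic core carries electrons from NADH to ubiquinone. Ndufv1, which binds NADH and the flavin, was at 12.04 and 12.11 in control, 11.88 and 11.94 in AC2d, 11.87 and 11.83 in AC30, 12.16 and 12.11 in DeAC, and 12.07 and 12.02 in ReAC. Both AC30 pools lay below both pools of control, DeAC and ReAC. It fell in AC30 against control by 0.23 ± 0.04 (SE, n = 2 pools per group; limma adjusted p 0.00519) and was 0.29 ± 0.04 higher in DeAC than in AC30 (adjusted p 0.000369). Ndufs7, whose iron-sulfur cluster hands electrons to ubiquinone, was at 11.20 and 11.23 in control, 11.001 and 11.07 in AC2d, 10.75 and 10.96 in AC30, 11.18 and 11.28 in DeAC, and 10.9996 and 11.16 in ReAC. The AC30 pools were again the lowest, the first of them by the wider margin. Its fall in AC30, 0.36 ± 0.07 on the log2 scale (adjusted p 0.00593), was the largest of the members that passed there. Ndufs1, the largest iron-sulfur subunit, was 0.18 ± 0.04 lower in AC30 than in control and 0.20 ± 0.04 higher in DeAC than in AC30. Of the 6 measured core subunits 4 were lower in AC30 against control (4.96% of all genes) and all 6 were higher in DeAC against AC30 (9.85% of all genes), with medians of -0.20 and 0.25, and 0 of 6 passed in DeAC against control, where limma gave 1 an unadjusted p under 0.05.

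Accessory subunits surround this core and are needed for its assembly and stability. Among the 27 measured, 9 were lower in AC30 than in control (4.96% of all genes). In DeAC against AC30, 14 were higher (9.85% of all genes) and 2 were lower, a share of 27 close to the 7.45% of all genes. Ndufb6, of the membrane arm, was at 9.98 and 9.97 in control, 9.78 and 9.71 in AC2d, 9.70 and 9.81 in AC30, 10.08 and 10.17 in DeAC, and 10.11 and 10.13 in ReAC. All AC2d and AC30 pools were below control, and all DeAC and ReAC pools above it, without overlap. It was lower than control in AC2d by 0.23 ± 0.06 (adjusted p 0.0446) and in AC30 by 0.22 ± 0.06 (adjusted p 0.0257), and in both DeAC and ReAC it was 0.37 ± 0.06 higher than in AC30.

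Ndufa10 showed the widest change of all members. Its level was 8.85 and 8.68 in control, 8.56 and 8.57 in AC2d, 8.49 and 8.81 in AC30, 9.31 and 9.21 in DeAC, and 9.11 and 9.12 in ReAC. The 2 AC30 pools differed from each other and overlapped the control range, while all DeAC and ReAC pools lay above every earlier one. It was 0.61 ± 0.09 higher in DeAC than in AC30, a 1.53-fold difference (adjusted p 0.000341), and 0.50 ± 0.09 higher than in control (adjusted p 0.00433). In ReAC it remained 0.35 ± 0.09 above control (adjusted p 0.0232).

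Other accessory subunits took the pattern of the core. Ndufa9, which sits beside the ubiquinone site, was at 11.69 and 11.77 in control, 11.55 and 11.54 in AC2d, 11.52 and 11.46 in AC30, 11.79 and 11.97 in DeAC, and 11.73 and 11.78 in ReAC. AC30 was the lowest group and DeAC the highest, with no overlap with any other. Its rise from AC30 to DeAC was 0.39 ± 0.05 (adjusted p 0.000247). Ndufb8, of the membrane arm, was at 10.58 and 10.66 in control, 10.53 and 10.59 in AC2d, 10.37 and 10.44 in AC30, 10.76 and 10.81 in DeAC, and 10.54 and 10.63 in ReAC. AC30 was again lowest and DeAC highest, 0.38 ± 0.05 apart (adjusted p 0.000217), and the other groups overlapped each other. In ReAC it was 0.20 ± 0.05 lower than in DeAC (adjusted p 0.048), and Ndufb7, another membrane-arm subunit, was 0.21 ± 0.05 lower (adjusted p 0.0477). Ndufab1, the mitochondrial acyl carrier protein, was lower than control in AC30 by 0.22 ± 0.05 and in ReAC by 0.23 ± 0.05.

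A pair of small membrane-arm subunits went the other way. Ndufc2 was at 11.57 and 11.49 in control, 11.59 and 11.47 in AC2d, 11.62 and 11.54 in AC30, 11.31 and 11.31 in DeAC, and 11.38 and 11.40 in ReAC. All 4 pools of 3-month-old rats were below all 6 others. It fell by 0.26 ± 0.05 from AC30 to DeAC (adjusted p 0.0023) and was 0.21 ± 0.05 lower in DeAC than in control (adjusted p 0.0187). Ndufa1 was at 10.04 and 10.14 in control, 10.39 and 10.40 in AC2d, 10.31 and 10.24 in AC30, 10.01 and 10.10 in DeAC, and 10.09 and 10.01 in ReAC. The AC2d and AC30 pools were high and the other 6 low, without overlap. It rose in AC2d by 0.30 ± 0.05 (adjusted p 0.01) and was 0.22 ± 0.05 lower in DeAC than in AC30 (adjusted p 0.0123). With median scaling the DeAC differences of both kept their sign and no longer passed (Ndufc2 -0.11, adjusted p 0.246, and Ndufa1 -0.08, adjusted p 0.528), and Ndufa1 missed the threshold as deposited too (adjusted p 0.0639).

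Ndufa4, counted here by its symbol although it is now known to be bound to complex IV, stayed between 12.82 and 13.01 in all 10 pools and passed in no comparison. For Ndufv3, named here because its probe sets disagreed although it lies outside the naming rule, the brightest probe set was 0.34 lower in AC30 than in control as deposited, and the other was 0.02 lower. In DeAC against AC30 they were 0.40 and 0.17 higher.

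Among the assembly factors, Ndufaf1 is needed to join the membrane part of complex I. Its level was 9.09 and 9.11 in control, 8.99 and 8.91 in AC2d, 8.74 and 8.84 in AC30, 9.28 and 9.37 in DeAC, and 8.99 and 8.99 in ReAC. AC30 was the lowest and DeAC the highest group, and neither overlapped any other. It was lower than control in AC30 by 0.31 ± 0.06 (adjusted p 0.00587), higher than control in DeAC by 0.22 ± 0.06 (adjusted p 0.0366), and fell again by 0.34 ± 0.06 from DeAC to ReAC (adjusted p 0.00768). Ndufaf4 behaved otherwise, at 9.25 and 9.27 in control, 9.27 and 9.18 in AC2d, 9.07 and 8.94 in AC30, 9.01 and 9.05 in DeAC, and 8.74 and 8.92 in ReAC. The ReAC pools were the lowest of all 10. It was lower than control in AC30 by 0.25 ± 0.07 and in ReAC by 0.43 ± 0.07 (adjusted p 0.00121).

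In complex II, Sdha, the catalytic flavoprotein, was at 11.86 and 11.90 in control, 11.77 and 11.80 in AC2d, 11.71 and 11.78 in AC30, 12.01 and 12.04 in DeAC, and 11.96 and 11.94 in ReAC. The DeAC and ReAC pools were above all earlier pools. Sdha was 0.28 ± 0.04 higher in DeAC than in AC30 (adjusted p 0.000304) and 0.14 ± 0.04 higher than in control (adjusted p 0.0418). Sdhb, the iron-sulfur subunit, was at 11.64 and 11.71 in control, 11.61 and 11.61 in AC2d, 11.44 and 11.49 in AC30, 11.70 and 11.69 in DeAC, and 11.69 in both ReAC pools. The AC30 pools were the lowest, and Sdhb was 0.21 ± 0.04 lower there than in control (adjusted p 0.00585) and 0.23 ± 0.04 higher in DeAC than in AC30. Of the membrane anchors, Sdhc passed in no comparison (-0.12 ± 0.05 in DeAC against AC30, adjusted p 0.0854), and Sdhd passed in ReAC against control alone, 0.19 ± 0.05 lower (adjusted p 0.0259).

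In complex III both core proteins, which face the matrix and help to hold the complex together, followed the course of complex I. Uqcrc1 was at 11.57 and 11.71 in control, 11.40 and 11.44 in AC2d, 11.28 and 11.45 in AC30, 11.80 and 11.86 in DeAC, and 11.74 and 11.64 in ReAC. All AC2d and AC30 pools were below control and both DeAC pools were above it. It fell in AC30 by 0.28 ± 0.06 (adjusted p 0.013) and was 0.46 ± 0.06 higher in DeAC than in AC30, a 1.38-fold difference (adjusted p 0.000156). Uqcrc2 was at 12.17 in both control pools, 12.05 and 12.03 in AC2d, 11.92 and 12.04 in AC30, 12.26 and 12.25 in DeAC, and 12.25 and 12.24 in ReAC. Its groups before and after the 30 days without heat did not overlap, and it was 0.28 ± 0.04 higher in DeAC than in AC30 (adjusted p 0.000524). The small subunit Uqcrq was 0.22 ± 0.05 higher in that comparison. Uqcrfs1, the Rieske iron-sulfur protein that carries the electron to cytochrome c1, passed in no comparison and was 0.06 ± 0.05 higher in DeAC than in AC30 (adjusted p 0.487). Uqcrh, the hinge protein, passed in ReAC against control alone, 0.16 ± 0.04 lower (adjusted p 0.0258).

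**Figure D3:**
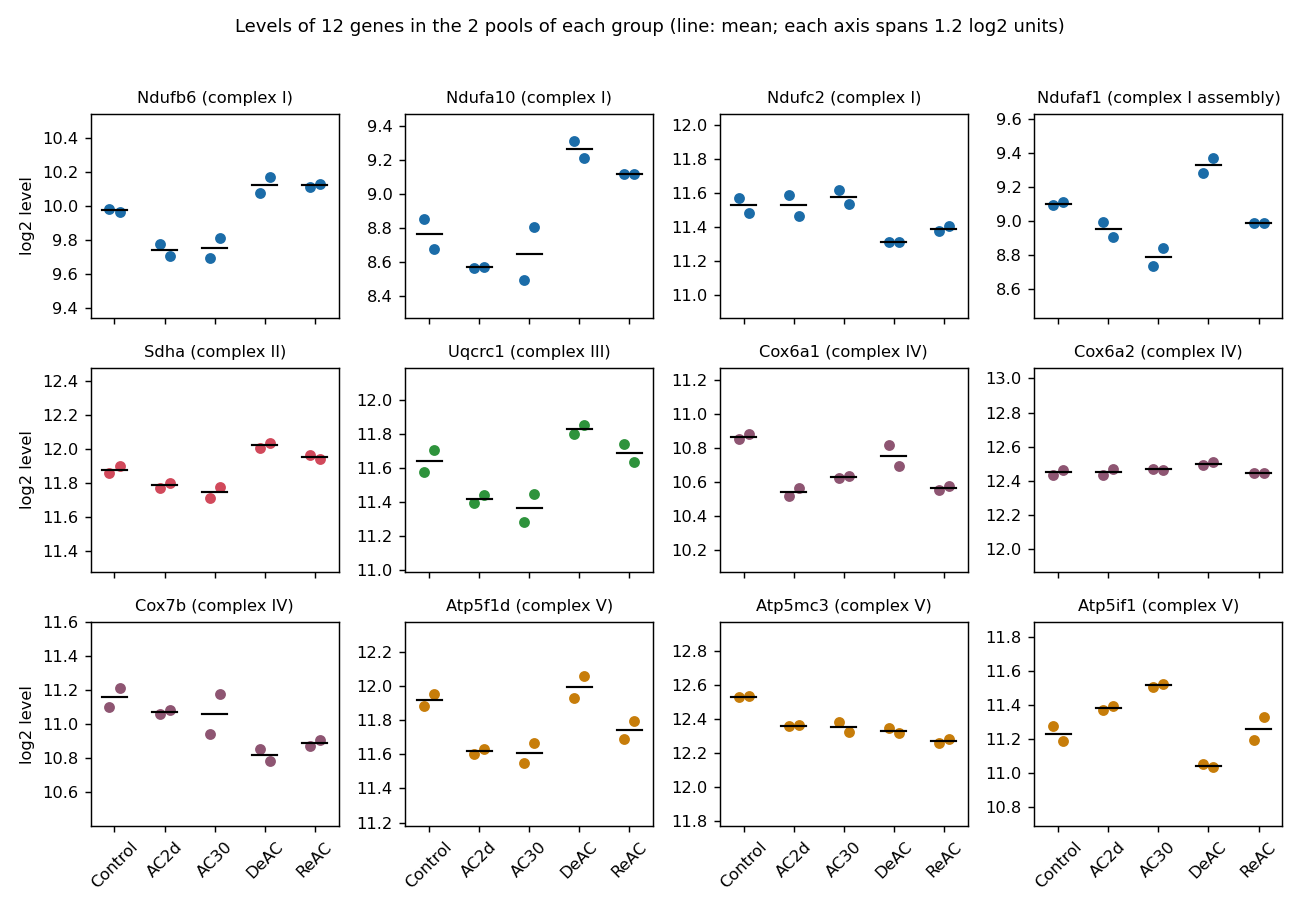
Log2 levels of 12 genes in the 2 pools of each group (points) with the mean (line), each axis spanning the same range. Ndufb6, Uqcrc1 and Atp5f1d are low in AC2d and AC30 and high in DeAC, Atp5if1 is highest in AC30 at 11.51 and 11.52 and lowest in DeAC, and Cox6a2 stays between 12.43 and 12.51.

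Complex IV has subunits that exist as tissue isoforms, and the 14 measured members did not move as a block. Cox7a1 was not among them. Cox6b2 (5.64 to 6.16) lay near the array medians and Cox8c below them. The members that fell in DeAC are among its small subunits. Cox7b was at 11.10 and 11.21 in control, 11.06 and 11.09 in AC2d, 10.94 and 11.18 in AC30, 10.86 and 10.79 in DeAC, and 10.87 and 10.91 in ReAC. The 4 pools of 3-month-old rats were the lowest, and DeAC was 0.34 ± 0.07 lower than control (adjusted p 0.00691). Cox7a2l, which takes part in joining complexes III and IV into a supercomplex, was at 10.50 and 10.51 in control, 10.56 and 10.57 in AC2d, 10.49 and 10.59 in AC30, 10.23 and 10.29 in DeAC, and 10.32 and 10.35 in ReAC. Again the DeAC and ReAC pools were below all others, and DeAC was 0.28 ± 0.05 lower than AC30 (adjusted p 0.00117) and 0.25 ± 0.05 lower than control (adjusted p 0.00727). Cox8a was at 10.57 and 10.55 in control, 10.48 and 10.48 in AC2d, 10.83 and 10.66 in AC30, 10.51 and 10.21 in DeAC, and 10.40 and 10.37 in ReAC. The AC30 pools were the highest, the DeAC pools lay far apart, and it fell by 0.39 ± 0.08 from AC30 to DeAC (adjusted p 0.00338). Cox6c fell by 0.20 ± 0.04 in the same comparison (adjusted p 0.00511), and was at 0.093 ± 0.13 with the atrial covariate. With median scaling Cox8a still passed (-0.26, adjusted p 0.0223), whereas Cox7b, Cox7a2l and Cox6c kept their sign and did not.

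The isoforms of subunit 6A had different values. Cox6a1, the form found in most tissues, was at 10.85 and 10.88 in control, 10.52 and 10.56 in AC2d, 10.62 and 10.63 in AC30, 10.81 and 10.69 in DeAC, and 10.55 and 10.57 in ReAC. It was high in control and, less so, in DeAC, and low in each group that was in the heat at the time of sampling. It fell against control by 0.33 ± 0.05 in AC2d (adjusted p 0.00256), 0.24 ± 0.05 in AC30 (adjusted p 0.00826) and 0.30 ± 0.05 in ReAC (adjusted p 0.00118), and by 0.19 ± 0.05 from DeAC to ReAC (adjusted p 0.0444). Its change in DeAC against control was -0.11 ± 0.05 (adjusted p 0.188). Cox6a2, the form of heart and skeletal muscle, lay between 12.43 and 12.51 in all pools, and its changes against control were 0.00, 0.02, 0.05 and 0.00, each with an SE of 0.04, in AC2d, AC30, DeAC and ReAC.

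Cox4i1, the common form of subunit 4, lay between 12.06 and 12.25 and passed in no comparison. Cox4i2, the form most abundant in lung, was much dimmer, at 6.98 and 7.38 in control, 6.93 and 7.02 in AC2d, 6.66 and 6.90 in AC30, 7.21 and 7.33 in DeAC, and 7.18 and 7.31 in ReAC. The DeAC and ReAC pools were above those of AC2d and AC30 and within the control range, and DeAC was 0.49 ± 0.13 higher than AC30 (adjusted p 0.0153). This turned to -0.51 ± 0.36 (adjusted p 0.805) with the atrial covariate. Cox5a was 0.17 ± 0.04 higher in that comparison (adjusted p 0.0117), but 0.12 with the values as deposited (adjusted p 0.0969) and -0.024 with the atrial covariate. Cox5b and Cox7a2 passed in no comparison, nor did Cox8c, known from testis, whose values between 4.09 and 4.84 were below every array's median of 5.95 to 6.10.

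Complex V showed both the rise from AC30 to DeAC and its most marked exception. Atp5f1d, the delta subunit of the central stalk, was at 11.88 and 11.95 in control, 11.60 and 11.63 in AC2d, 11.55 and 11.67 in AC30, 11.93 and 12.06 in DeAC, and 11.69 and 11.80 in ReAC. Its AC2d and AC30 pools were below all control, DeAC and ReAC pools. It fell by 0.30 ± 0.06 in AC2d (adjusted p 0.011) and by 0.31 ± 0.06 in AC30 (adjusted p 0.00366), was 0.39 ± 0.06 higher in DeAC than in AC30 (adjusted p 0.000278), and fell by 0.25 ± 0.06 from DeAC to ReAC (adjusted p 0.022). Atp5f1a, the alpha subunit of the catalytic head, was 0.21 ± 0.04 higher in DeAC than in AC30 (adjusted p 0.00247), while Atp5f1b, the beta subunit, lay between 13.05 and 13.15 in every pool and Atp5f1c, the gamma subunit, between 8.36 and 8.47, and neither passed in any comparison. Of the outer stalk, Atp5pb and Atp5pd were 0.20 ± 0.04 and 0.23 ± 0.04 higher in DeAC than in AC30.

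The genes Atp5mc1, Atp5mc2 and Atp5mc3 encode the same mature c subunit of the proton-driven ring. Atp5mc3 was at 12.53 and 12.54 in control, 12.36 and 12.37 in AC2d, 12.38 and 12.32 in AC30, 12.35 and 12.32 in DeAC, and 12.26 and 12.28 in ReAC. Every heat-history pool was below both control pools. The fall against control passed in all 4 groups, by 0.17 ± 0.04 in AC2d (adjusted p 0.0283), 0.18 ± 0.04 in AC30 (adjusted p 0.00905), 0.20 ± 0.04 in DeAC (adjusted p 0.00531) and 0.26 ± 0.04 in ReAC (adjusted p 0.000514), comparisons that share the control pools. With median scaling 0 members passed as lower in DeAC against control. Without the trend 0 passed as lower in AC2d or in DeAC. The fall of Atp5mc3 thus did not pass in all 4 groups in either setting. Atp5mc1 was at 11.08 and 11.18 in control, 10.96 and 10.90 in AC2d, 10.99 and 10.91 in AC30, 11.19 and 11.18 in DeAC, and 10.97 and 10.91 in ReAC. It was thus low in every group in the heat and high in control and DeAC, with a rise of 0.24 ± 0.05 from AC30 to DeAC (adjusted p 0.00427) and a fall of 0.25 ± 0.05 from DeAC to ReAC (adjusted p 0.0134). Atp5mc2 lay between 10.89 and 11.15 and passed in no comparison.

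Atp5if1 encodes the inhibitor that binds ATP synthase and keeps it from running backwards when respiration fails. Its level was 11.28 and 11.19 in control, 11.37 and 11.39 in AC2d, 11.51 and 11.52 in AC30, 11.05 and 11.04 in DeAC, and 11.19 and 11.33 in ReAC. The AC30 pools were the highest of all 10 and the DeAC pools the lowest. It rose in AC30 by 0.28 ± 0.05 against control (adjusted p 0.00324), was 0.47 ± 0.05 lower in DeAC than in AC30, a 1.39-fold difference (adjusted p 2.89e-05), and was 0.22 ± 0.05 higher in ReAC than in DeAC (adjusted p 0.0294). The order of its 5 group means was the reverse of that of Ndufaf1.

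Lists of genes around the complexes were counted beside them. Of 44 assembly factors written down, 32 were measured, and 17 were higher and 1 lower in DeAC than in AC30, with a median of 0.25 beside 0.01 over all genes, of which 9.85% were higher and 7.45% lower. Atpaf1, which helps to assemble the head of ATP synthase, was at 8.51 and 8.57 in control, 8.25 and 8.29 in AC2d, 8.13 and 8.25 in AC30, 8.80 and 8.85 in DeAC, and 8.46 and 8.39 in ReAC. The DeAC pools were the highest, a rise from AC30 of 0.63 ± 0.07 (adjusted p 2.67e-05), and Ecsit, a complex I assembly factor, was 0.50 ± 0.06 higher. The 1 lower gene was Uqcc3, an assembly factor of complex III, at -0.34 ± 0.11 (adjusted p 0.0422). Against control, 5 of the 32 were lower in AC30 (4.96% of all genes) and 7 were higher in DeAC (4.45% of all genes).

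Of 26 regulators of mitochondrial genes 23 were measured, and 12 were higher in DeAC than in AC30 and 0 lower, with a median of 0.27, against the same 9.85% and 7.45% of all genes. Tfb2m, a factor needed to start transcription of mitochondrial DNA, was at 8.68 and 8.63 in control, 8.62 and 8.61 in AC2d, 8.54 and 8.62 in AC30, 9.21 and 9.23 in DeAC, and 9.08 and 9.10 in ReAC. All DeAC and ReAC pools were above all others. It was 0.64 ± 0.06 higher in DeAC than in AC30 (adjusted p 8.8e-06), and Perm1, a muscle regulator of the PGC-1 and ERR pathway, was 0.45 ± 0.05 higher. Of the 16 measured genes for electron carriers and coenzyme Q synthesis 11 were higher in DeAC than in AC30 (9.85% of all genes), among them Coq5, a coenzyme Q methyltransferase, by 0.58 ± 0.06, and Etfdh, which feeds electrons from fat oxidation to ubiquinone, by 0.41 ± 0.05. Of the 19 for mitochondrial membrane and import 12 were higher, led by Opa1, which fuses inner membranes, at 0.55 ± 0.06, and 8 were lower in AC30 than in control (4.96% of all genes).

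Atrial markers moved with these comparisons. By limma all 7 were higher in AC30 than in control (3.57% of all genes) and lower in DeAC than in AC30 (7.45% of all genes). Lower in DeAC than in control were 6 (3.77% of all genes), and 6 were higher in ReAC than in DeAC (1.7% of all genes). The mean of the list differed by -4.80 log2 units between DeAC and AC30 and by 1.76 between AC30 and control. Sarcolipin (Sln) was at 12.96 and 12.78 in AC30 and at 5.79 and 5.73 in DeAC. The 2 control pools, both untreated, differed by 1.97 in this mean, and the second, with the lower atrial level, was higher in 58 of 79 members (27 of 33 in complex I) with a median difference of 0.06. Over all genes it was higher in 7270 of 14324, with a median difference of 0.00. This is 1 pair of pools, and its means of brown fat markers (5.54 and 4.50) and adipocyte markers (6.83 and 5.95) differed too. All 6 fibroblast markers were also lower in DeAC than in AC30 (7.45% of all genes), and 3 of 3 endothelial markers were lower in AC30 than in control (4.96% of all genes). Against control, 4 of the 6 fibroblast markers were higher in AC30 (3.57% of all genes). In DeAC against control 1 of them was higher (Dcn, 0.28, 4.45% of all genes) and 2 were lower (Col1a1, -1.10, and Col3a1, -0.92, 3.77% of all genes). Both red cell markers were lower in DeAC and in ReAC than in AC30 (7.45% and 4.85% of all genes). In DeAC against AC30, 1 of 4 brown fat markers (Ucp1, -2.47) and 2 of 8 adipocyte markers (Adipoq, -1.95, and Plin1, -1.10) were lower. Of 5 macrophage markers 5 were higher in ReAC than in control (5.63% of all genes) and 4 than in AC30 (6.77% of all genes). Among the 8 ventricular markers Myl3 was lower in AC30 than in control (-0.27) and higher in DeAC than in AC30 (0.28), Irx4 was higher in DeAC than in AC30 (0.52), and Myh7 was higher than control in all 4 groups, by 1.07 to 1.78. Myh6 was lower in ReAC than in control (-0.33), AC30 (-0.29) and DeAC (-0.30), where 5.28%, 4.85% and 2.21% of all genes were lower. Higher in these comparisons were 1, 2 and 1 of the 8 (5.63%, 6.77% and 1.7% of all genes). With the atrial mean as a covariate in limma, an alternative chosen after seeing the data, 0 of 79 members passed in DeAC against AC30 and 5 had an unadjusted p under 0.05. In that fit the SE of the 41 members that had passed rose from between 0.04 and 0.13 to between 0.13 and 0.36. Its slope rests on differences between pools of the same group, mainly those between the 2 control pools. These differed by 1.97 in the atrial mean, while the 2 DeAC pools were at 6.92 and 6.94. The slope is then carried to a difference of -4.80, and the control pools also differ in fat markers. The fit therefore cannot decide what part atrial RNA has. The sign turned in 11 of the 41, while Ndufa10 was 0.99 ± 0.30 higher in DeAC than in AC30 (adjusted p 0.243), Ndufb6 0.38 ± 0.20 and Uqcrc1 0.11 ± 0.19. The part of RNA from other cell types in these results was not tested beyond this.

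**Figure D4:**
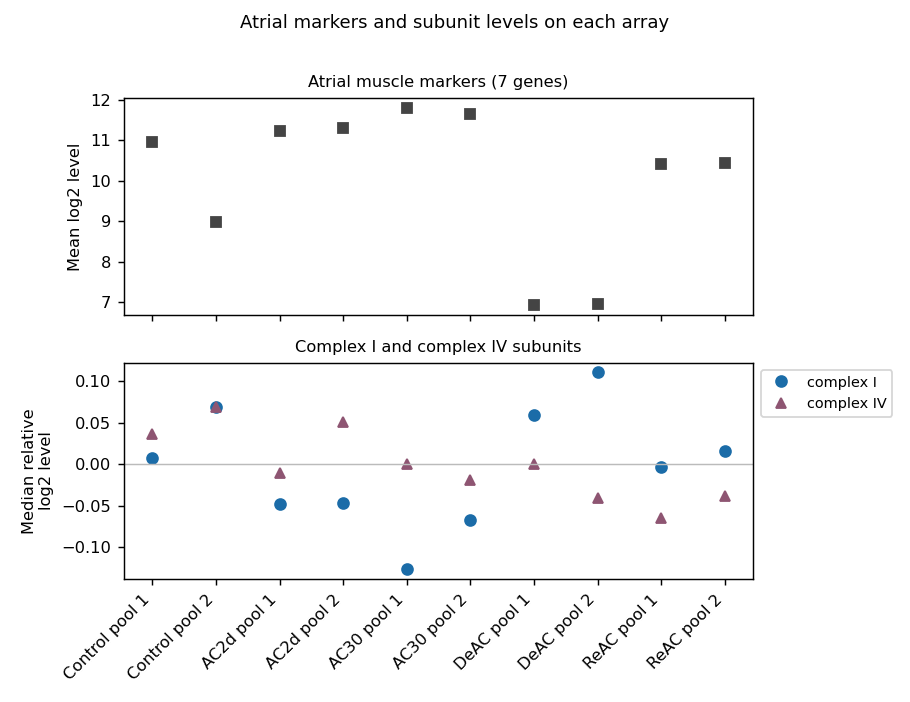
Mean log2 level of the 7 measured atrial muscle markers (top) and median relative log2 level of complex I and complex IV subunits (bottom) on each of the 10 arrays. The atrial mean is near 6.9 in both DeAC pools and 11.80 and 11.66 in AC30, complex I is lowest in the AC30 pools, and the 2 control pools differ in both panels.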

How the data were processed

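Per the labels' protocols, 1 array per pool was hybridised with biotin-labelled total RNA of left ventricle. The values used are log2 levels per probe set as deposited by the authors; their summary and normalization are not given in the sources used here. The authors' deposited table of fold scores against control lists 651 probe sets, with 0 of the 90 member probe sets among them, and was not used further.

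Of 27342 probe sets 15097 carried 1 gene symbol in the platform annotation, 323 several and 11922 none. Levels were quantile normalized over the 10 arrays, and the brightest probe set of each of 14324 genes was kept. A mean per group was fitted in limma 3.58.1 (R 4.3.3) with eBayes and a trend (5 residual and 8.31 prior degrees of freedom). Benjamini-Hochberg adjustment covered all genes in each of 8 comparisons and the F test, and an adjusted p under 0.05 passed. The fit was tested on simulated data. The settings varied were median scaling, no scaling (values as deposited), no trend, mean probe sets, the 40% dimmest genes left out, only the groups compared, the replicate number as a block, each pool left out, and an atrial covariate chosen after seeing the data. Array number limits the precision, and pooling hides the spread between animals.

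Members and lists were chosen with earlier results of these data known. Named were, per comparison, complex and direction, up to 3 members that passed with the smallest p, those with the 12 smallest adjusted p-values in the F test, and a list of main subunits; of other lists, up to 2 genes per direction. The deviations of same-numbered pools from their group means had correlations from -0.08 to 0.21 across genes, the highest for AC30 with DeAC. The pools were not paired in the main fit. With 2 pools per group this check cannot exclude that the numbers pair pools. Promoters came from RefSeq (GRCr8).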

Additional observations from a re-analysis of the deposited data

Results flagged for a closer look

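In 2 members the changes against control ran in opposite directions in AC30 and DeAC and both passed. The same was not counted over all genes. Atp5if1 was higher than control in AC30 and lower in DeAC, and the difference between these groups, which share the control pools, was -0.47 on the log2 scale (limma adjusted p 2.89e-05). With median scaling 0 members passed as lower in DeAC against control. Without the trend 0 passed as higher in AC30 against control. Atp5if1 thus met this rule in neither setting. Ndufaf1 was lower than control in AC30 and higher in DeAC, with a difference of 0.54 (limma adjusted p 4.58e-05). Without the trend only 1 member passed as higher in DeAC against control, and only 1 as lower in AC30. With the atrial covariate 0 members passed against control in AC30 or in DeAC, so neither gene met the rule there. The atrial marker mean fell by 4.80 log2 units over the same comparison, and its part in both values was not tested beyond the covariate fit. That fit, whose slope rests mainly on the 2 control pools, gave -0.25 ± 0.16 and 0.48 ± 0.22.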

How the results depend on the processing

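Counts of passing members depended on the processing, and so did the balance of directions in some comparisons. In DeAC against control the split of 3 higher and 6 lower became 6 and 0 with median scaling. In ReAC against control the member median was -0.04 (-0.01 over all genes) and became 0.05 with median scaling (0.06 over all genes). Among the named changes that passed, the sign turned only with the atrial covariate, in 4 of 101. With the values as deposited, 3 members passed in AC2d, 14 in AC30 and 5 in ReAC against control, and 3 in ReAC against DeAC. With median scaling these were 1, 5, 3 and 0. Without the trend the count was 0 in AC2d, 1 in AC30, 1 in DeAC and 3 in ReAC against control, 22 in DeAC and 5 in ReAC against AC30, 0 in ReAC against DeAC and 12 in the F test. Fitting only the groups compared left 2, 2, 4 and 6 in the comparisons with control, and leaving out the dimmest genes gave 8 in AC2d. With the atrial covariate the counts were 2 in AC2d, 0 in AC30, 0 in DeAC and 13 in ReAC against control, 0 in DeAC and 6 in ReAC against AC30, 0 in ReAC against DeAC and 15 in the F test, and the DeAC minus AC30 change turned to -0.51 for Cox4i2, -0.024 for Cox5a, 0.093 for Cox6c and -0.19 for Ndufab1. Where 0 passed by limma, unadjusted p-values under 0.05 numbered 12 (AC2d) and 11 (ReAC against DeAC) without the trend, and 20 (AC30 against control), 8 (DeAC against control), 5 and 2 with the covariate. Leaving out 1 pool gave 0 to 9 in AC2d, 5 to 23 in AC30, 3 to 13 in DeAC and 3 to 13 in ReAC against control, 26 to 43 in DeAC and 9 to 26 in ReAC against AC30, 0 to 10 in ReAC against DeAC, 0 to 1 for the second minus the first heat response and 33 to 44 in the F test. With the replicate number as a block the counts were 6, 25, 10 and 13 against control, 44 and 24 against AC30, 7 in ReAC against DeAC and 40 in the F test.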
